A study of Homo sapiens with 6 samples.

Results

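Homologous recombination and Fanconi repair genes were followed in KYSE-150, an established cell line from a human squamous carcinoma of the oesophagus, with and without the targeting of ZNF514, a zinc finger gene. The set held 37 genes, found by symbol among the 50868 gene rows of the deposited table, and listed with earlier results of these data known. RNA sequencing covered 2 groups of 3 libraries. The control libraries carry the title nc, the series text speaks of wild type cells, and no control siRNA is named. The other group, named siZNF514 here, is described in the labels as a ZNF514 knockout by siZNF514. All cells were grown in RPMI medium with fetal bovine serum. Whether replicate libraries stem from separate cultures is not stated, so the p-values cover the spread between these samples only, which may be technical. Dose and duration of the treatment are not stated in the sources used here.

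Homologous recombination mends a broken chromosome by copying the intact sister chromatid. Break sensors call in nucleases that resect the ends, BRCA1 and BRCA2 with their partners prepare the exposed strand for the search, and further proteins help it to invade the sister. The Fanconi pathway acts on crosslinks between the strands of DNA: a core complex attaches ubiquitin to FANCD2 and FANCI, and recombination then completes the repair. Many of these genes are transcribed most in S phase, and loss of several of them sensitises cells to platinum drugs and PARP inhibitors. MSH6, a mismatch recognition protein, belongs to another pathway than the set's name says.

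Totals ran from 12175259 to 14318909 counts per library. ZNF514 (ENSG00000144026) had 239, 273 and 261 counts in nc and 64, 82 and 63 in siZNF514, so its transcript was lower in each siZNF514 library and remained present in all of them. As counts scaled by library size (CPM), its level was 19.4 ± 1.05 CPM in nc and 5.31 ± 0.871 CPM in siZNF514 (SD, n = 3), a log2 fold change of -1.87 (SE 0.14, edgeR adjusted p = 5.77e-05). By exact permutation of the library labels, two-sided, p was 0.1, the smallest value possible with 3 libraries on each side. The 10 squamous epithelial markers, of which 9 were tested, had a summed level of 2400.4 to 2674 CPM in nc and 2017 to 2400.8 CPM in siZNF514. Single markers moved both ways. KRT6A (log2 fold change -2.16), KRT14 (-1.23), PERP (-0.56) and KRT5 (-0.52) fell, and EPCAM (0.41) and CDH3 (0.38) rose. KRT17, TP63 and CDH1 were not called, with CDH1 at 295, 544 and 522 CPM in the siZNF514 libraries. For 7 fibroblast markers, of which 2 were tested, the summed level was 11.7 to 13.4 CPM in nc and 14.1 to 40.2 CPM in siZNF514. The highest of these was siZNF514 replicate 3, which stood apart with 112 counts of COL3A1, 49 of COL1A2, 33 of DCN and 49 of the myeloid gene LYZ, each at 0 in the other siZNF514 libraries. Among the 37 repair genes, leaving out that library gave 8 called higher and 11 lower in place of 8 and 13, with RAD50 and FANCG no longer called. Summed levels ran from 56.1 to 68.4 CPM in nc and from 48.8 to 58.1 CPM in siZNF514 for 6 immune markers, and from 3.11 to 3.31 CPM and from 1.88 to 2.42 CPM for 4 endothelial markers.

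All 37 genes were measured well enough to test, with 91 to 2472 counts in any library. After ZNF514 targeting the set moved in both directions. BRCA2, PALB2, BRCA1 and RAD52, which act on the resected strand, fell, as did the checkpoint kinase genes ATM and CHEK1. Of the same roles, BARD1, ATR and CHEK2 showed little difference. The exonuclease gene EXO1, the strand invasion gene RAD54L and the Fanconi core gene FANCA rose. Tests came from the quasi-likelihood fit of edgeR, with p-values adjusted by the Benjamini-Hochberg method over 14250 tested genes. By this edgeR adjusted p at 0.05, 8 members were called higher and 13 lower, and 16 were not called. The 21 called members were 56.8% of the set, against 50.6% of all tested genes, of which 25.5% were higher and 25.1% lower. The share of members called was therefore close to the share among genes at large. The groups' CPM ranges did not overlap for 23 members, 9 higher and 14 lower, against 60.3% of all tested genes (30% higher and 30.3% lower). Among the 9432 genes whose nc level lay within the range of the members, 54.3% were called. Every member changed by less than 2-fold, a size that 9.28% of all tested genes reached with an adjusted p under 0.05. The extremes were BRCA2, at 58.8% of its nc level, and FANCA, at 157%.

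The median log2 fold change (siZNF514 over nc) of the 37 members was -0.12, against -0.01 over all tested genes. Without nc replicate 3 the members' median was -0.02. When libraries were scaled by total counts alone, the median of all tested genes moved to -0.14 and that of the members to -0.25, with 5 members higher and 16 lower. Each direction given here is thus relative to most genes as the reference. With total counts alone RAD54B, FANCM and FANCD2 lost their call, and no called member reversed its direction. Values in parentheses after a verb are log2 fold changes of siZNF514 over nc, with their SE. Summed over the set, the level was 1826 to 1904 CPM in the nc libraries and 1714 to 1798 CPM in the siZNF514 libraries. Since this is bulk RNA, fewer cells in the phase that transcribes these genes and less transcript per cell cannot be told apart.

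**Figure D1:**
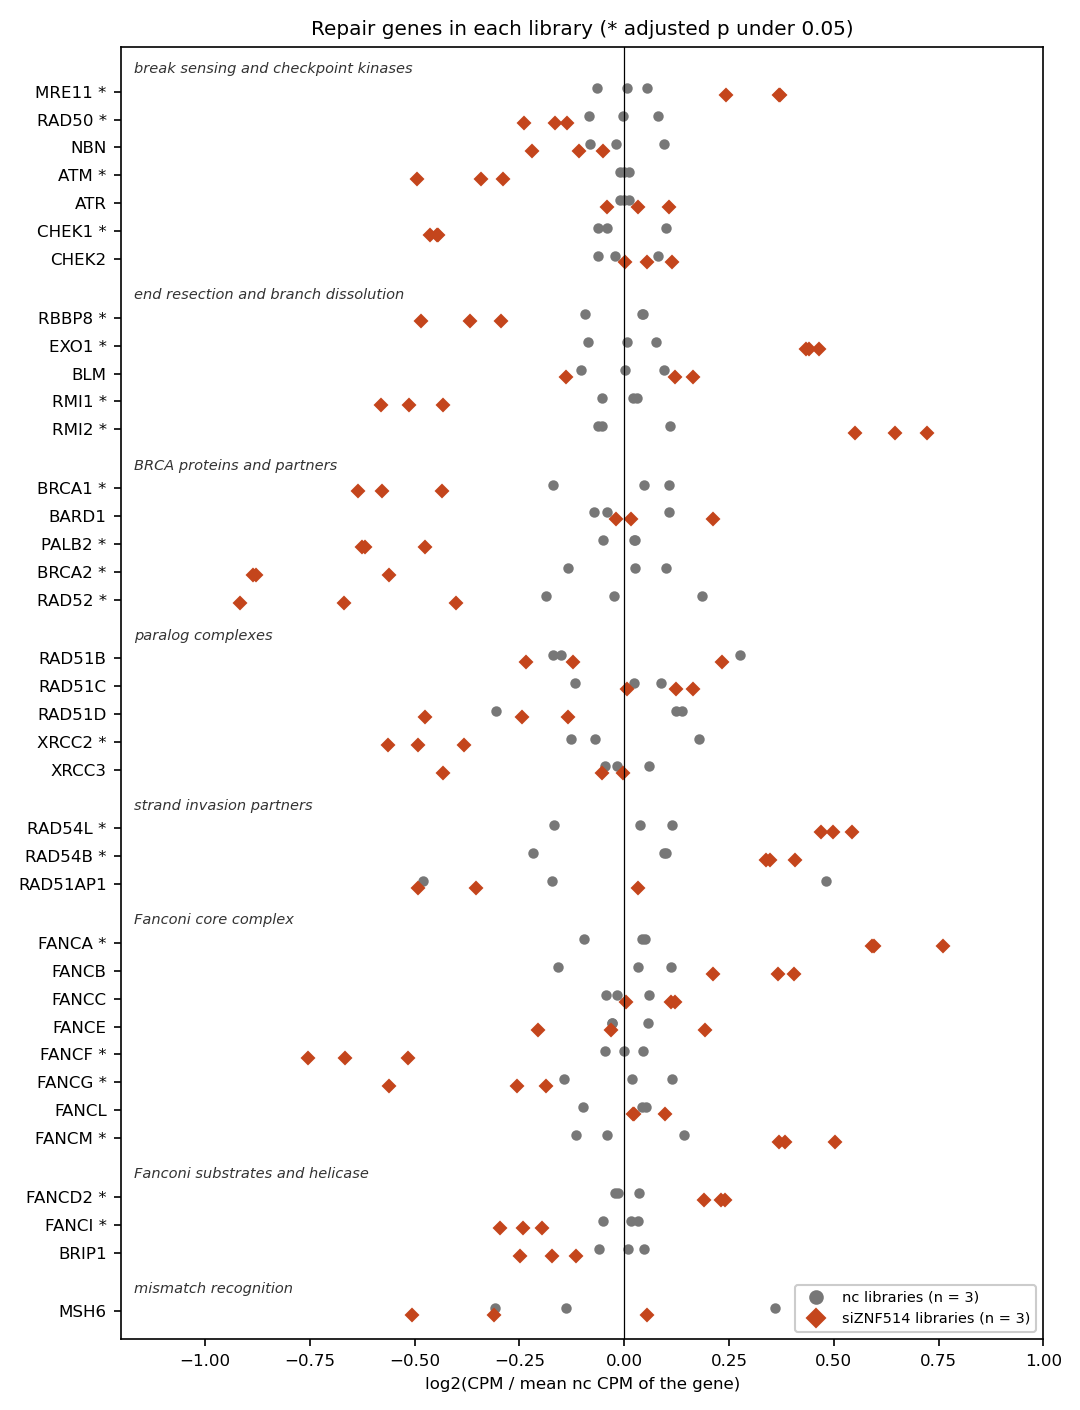
Each point is 1 library, as log2 of its CPM over the gene's mean nc CPM, for the 37 members grouped by role; grey circles are nc and orange diamonds siZNF514 (n = 3 each), and stars mark an edgeR adjusted p under 0.05. BRCA2, RMI1 and FANCF lie left of their nc libraries without overlap, RMI2, EXO1 and FANCA lie right of them, and RAD51AP1 and MSH6 spread widely within both groups.

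Levels per length, as the deposited FPKM, spread over the set from 0.742 ± 0.134 FPKM (SD, n = 3) for RAD51B to 15.7 ± 0.507 FPKM for FANCI in nc, with a median of 5.01 FPKM. Next to FANCI stood RAD50 at 11.9 ± 0.710 FPKM, and FANCE and NBN at 10.7 ± 0.356 and 10.6 ± 0.664 FPKM, whose ranges do not separate them from each other. At the low end, RAD51B, FANCM (0.890 ± 0.0813 FPKM) and RAD52 (0.976 ± 0.130 FPKM) were within their spread of one another. The order of levels was largely kept in siZNF514, with a Spearman correlation over the 37 genes of 0.92, which describes these libraries only. Across the members the log2 fold change had a Spearman correlation of -0.04 with the nc FPKM and of -0.22 with the length behind the FPKM values, again as a description of genes that share the same libraries.

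**Figure D2:**
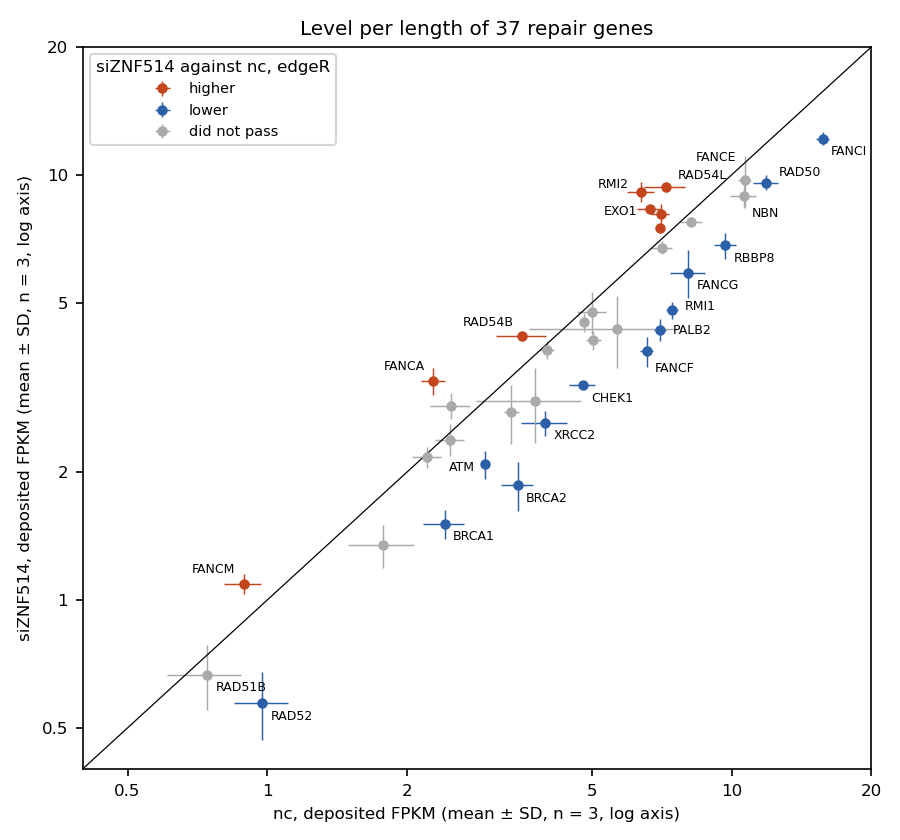
Mean deposited FPKM of each member in nc (horizontal) and siZNF514 (vertical), both on log axes, with SD bars over 3 libraries and the line of equal levels; colours give the edgeR call. Most points sit below the line of equal levels in these values, which are scaled by total counts alone, from RAD51B at 0.742 ± 0.134 FPKM in nc up to FANCI at 15.7 ± 0.507 FPKM.

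Promoters of 33 of the 37 members were found in a RefSeq table (GRCh38.p14) that gives 250 bases before and 50 after each start; NBN, RAD54B, FANCI and RMI2 were not matched. The letters of E2F-type sites, bound by the factors that drive S phase transcription, were searched on both strands as TTTGGCGC, TTTCCCGC, TTTCGCGC and TTTGCCGC. None of these contains the other letters searched. E2F-type letters were present for 7 members (21.2%), against 3.99% of 27305 genes with any such window. Among genes with a single window, 3 of 20 members held them, against 3.18% of 22114 genes. Of those 7 members, EXO1, FANCA and FANCD2 rose, RMI1 and XRCC2 fell, and FANCC and MSH6 did not pass, so both directions occurred. CCAAT, the letters of NF-Y sites, was present for 16 members (48.5%) and for 39.7% of genes, and TTTGAA, those of CHR sites in late cell cycle genes, for 3 members (9.09%) and 18.2% of genes. The genes compared were all those with a window, not matched to the members by expression or by base composition of the promoter. Such matches describe letters and show no binding.

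The upstream stretches of 2 members that rose and 2 that fell, picked by hand, are given here as examples. They are cut to the bases outside every gene row of the deposited table, 5′ to 3′. Their lengths are 240 bases for FANCA, 250 for FANCM, 129 for BRCA2 and 81 for PALB2, so their numbers of matches cannot be compared. Capitals mark E2F-type letters and CCAAT on either strand.
FANCA (chr16:89816658-89816897, minus strand; rose): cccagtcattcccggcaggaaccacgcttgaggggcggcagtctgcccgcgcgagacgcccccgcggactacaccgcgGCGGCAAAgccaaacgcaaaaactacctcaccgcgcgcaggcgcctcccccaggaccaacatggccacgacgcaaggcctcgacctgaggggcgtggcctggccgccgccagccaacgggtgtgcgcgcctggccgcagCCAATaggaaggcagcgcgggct
FANCM (chr14:45135680-45135929, plus strand; rose): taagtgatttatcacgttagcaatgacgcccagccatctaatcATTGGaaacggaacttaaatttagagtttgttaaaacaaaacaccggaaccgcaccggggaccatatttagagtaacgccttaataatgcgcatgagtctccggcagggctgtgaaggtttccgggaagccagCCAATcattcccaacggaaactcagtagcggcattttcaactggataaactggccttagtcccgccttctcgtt
BRCA2 (chr13:32315345-32315473, plus strand; fell): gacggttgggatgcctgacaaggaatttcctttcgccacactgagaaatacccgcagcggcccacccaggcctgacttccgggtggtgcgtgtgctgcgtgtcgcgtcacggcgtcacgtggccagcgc
PALB2 (chr16:23641311-23641391, minus strand; fell): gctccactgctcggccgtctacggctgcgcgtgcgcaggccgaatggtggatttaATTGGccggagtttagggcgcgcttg
The FANCA stretch holds 1 E2F-type match, TTTGCCGC read on the opposite strand, starting 172 bases before the RefSeq start, and 1 CCAAT. FANCM holds 2 CCAAT matches, 1 of them on the strand opposite to transcription. PALB2 holds 1, also on the opposite strand, while the BRCA2 stretch holds none of these letters.

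Among the genes that sense breaks and signal them, 3 of 7 fell, 1 rose and 3 did not pass. Beside this and the later counts by role, 25.5% of all tested genes were called higher and 25.1% lower. MRE11, RAD50 and NBN encode the MRN complex that first binds a broken end. MRE11, its nuclease, was at 70.3, 68.0 and 64.6 CPM in the nc libraries and 87.5, 87.4 and 80.0 CPM in the siZNF514 libraries. All 3 siZNF514 libraries lay above the nc libraries, and MRE11 rose with a log2 fold change of 0.33 (SE 0.06, edgeR adjusted p = 0.00334). RAD50, the ATPase that tethers the ends, was at 138, 123 and 129.9 CPM in the nc libraries and 118, 116 and 110.1 CPM in the siZNF514 libraries. It fell by a small amount (-0.18, SE 0.06, edgeR adjusted p = 0.0332) and no longer passed without nc replicate 1, nc replicate 3, siZNF514 replicate 2 or siZNF514 replicate 3, or with a gene length offset or no filter on low counts (-0.14 to -0.19 over these). NBN, the subunit that recruits ATM, did not pass (104 ± 6.59 CPM in nc and 95.7 ± 5.71 CPM in siZNF514; -0.12, SE 0.07), and passed at -0.25 with total counts alone.

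The kinase genes split between those that fell and those with little difference. ATM, the kinase that answers double-strand breaks, was at 91.8, 91.2 and 92.5 CPM in the nc libraries and 75.1, 72.4 and 65.2 CPM in the siZNF514 libraries. The nc libraries were nearly equal and all 3 siZNF514 libraries lower, a log2 fold change of -0.37 (SE 0.06, edgeR adjusted p = 0.00231). CHEK1, which carries the signal of stalled forks to the cell cycle, was at 60.6, 55.0 and 54.2 CPM in the nc libraries and 41.6, 41.5 and 41.0 CPM in the siZNF514 libraries. It fell to 73.1% of the nc level (-0.45, SE 0.06, edgeR adjusted p = 0.000967). ATR, which acts upstream of CHEK1 at single-stranded DNA, was at 71.4 ± 0.518 CPM in nc and 73.2 ± 3.79 CPM in siZNF514 (0.03, SE 0.05), and CHEK2, the partner kinase of ATM, at 48.9 ± 2.53 CPM in nc and 50.9 ± 1.97 CPM in siZNF514 (0.06, SE 0.06). Neither ATR nor CHEK2 passed, and their groups overlapped. Some of these genes share sequence with others: NPAT, on the opposite strand of ATM, fell too (-0.52), and the row of STT3A, on the same strand as CHEK1, held 374% of the counts of CHEK1 and did not pass (-0.13). HSCB, opposite CHEK2 with 22.9% of its counts, fell (-0.57). The strand setting of the counting is not stated in the sources used here, so reads of overlapping rows may not be separated.

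End resection and the dissolution of joined chromosomes gave opposite changes within 1 step. Of 5 genes, 2 rose, 2 fell and BLM did not pass. RBBP8 encodes CtIP, which starts resection together with MRE11, and was at 87.6, 87.7 and 79.7 CPM in the nc libraries and 69.4, 65.8 and 60.8 CPM in the siZNF514 libraries. It fell (-0.38, SE 0.07, edgeR adjusted p = 0.00339). EXO1, the exonuclease that extends resection, was at 44.3, 42.3 and 39.6 CPM in the nc libraries and 57.1, 58.1 and 56.8 CPM in the siZNF514 libraries. It rose (0.45, SE 0.06, edgeR adjusted p = 0.000869), and its siZNF514 libraries lay close together.

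RMI1 and RMI2 encode subunits of the complex in which the BLM helicase and a topoisomerase undo double Holliday junctions. RMI1 (ENSG00000178966; chromosome 9, 83980711 to 84004074, plus strand) was at 46.3, 49.0 and 48.7 CPM in the nc libraries and 32.1, 35.6 and 33.6 CPM in the siZNF514 libraries. RMI2 (ENSG00000175643; chromosome 16, 11249619 to 11351762, plus strand) was at 33.7, 33.9 and 37.9 CPM in the nc libraries and 51.6, 55.0 and 58.1 CPM in the siZNF514 libraries. The former was lower and the latter higher in all 3 siZNF514 libraries, with log2 fold changes of -0.51 (SE 0.06, edgeR adjusted p = 0.000651) for RMI1 and 0.64 (SE 0.08, edgeR adjusted p = 0.000459) for RMI2. BLM itself did not pass (46.0 ± 3.14 CPM in nc and 47.8 ± 5.27 CPM in siZNF514; 0.05, SE 0.10).

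Of the 5 genes of BRCA proteins and their partners, 4 fell and BARD1 did not pass, and their median change was -0.57 on the log2 scale. BRCA2 (ENSG00000139618; chromosome 13, 32315474 to 32400266, plus strand), which acts on resected DNA and whose upstream stretch is printed above, was at 48.4, 56.9 and 54.0 CPM in the nc libraries and 28.9, 36.0 and 28.7 CPM in the siZNF514 libraries. The groups stood well apart, and BRCA2 fell (-0.77, SE 0.11, edgeR adjusted p = 0.00107). PALB2 (ENSG00000083093; chromosome 16, 23603160 to 23641310, minus strand), the bridge between BRCA1 and BRCA2, was at 45.0, 42.8 and 45.1 CPM in the nc libraries and 28.7, 31.9 and 28.9 CPM in the siZNF514 libraries. It fell to 67.3% of the nc level (-0.57, SE 0.07, edgeR adjusted p = 0.000516). BRCA1 (ENSG00000012048; chromosome 17, 43044295 to 43170245, minus strand), which promotes resection and recruits PALB2, was at 60.3, 57.9 and 49.8 CPM in the nc libraries and 41.4, 37.5 and 36.1 CPM in the siZNF514 libraries. It fell as well (-0.55, SE 0.09, edgeR adjusted p = 0.00236).

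BARD1, the obligate partner of BRCA1 in a ubiquitin ligase, was at 27.5, 24.8 and 24.3 CPM in the nc libraries and 25.8, 29.6 and 25.2 CPM in the siZNF514 libraries. Its groups overlapped, and it did not pass (0.07, SE 0.09, edgeR adjusted p = 0.543). RAD52, which anneals single strands and can partly stand in for BRCA2, was low, at 14.98, 11.6 and 12.9 CPM in the nc libraries and 9.96, 6.98 and 8.28 CPM in the siZNF514 libraries. It fell with a larger error than the others (-0.65, SE 0.16, edgeR adjusted p = 0.0146). BRCA2, PALB2, BRCA1 and RAD52 kept their direction and their call under all 16 alternatives, RAD52 with an adjusted p of up to 0.0481. The neighbour NBR2, whose row overlaps BRCA1 on the opposite strand, had 10.9% of the counts of BRCA1 and also fell (-0.69). AC060780.1, which overlaps BRCA1 on the same strand with 24.5% of its counts, did not pass (0.03). AC004803.1, which overlaps RAD52 on the same strand with 19.9% of its counts, fell like RAD52 (-0.79).

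RAD51B, RAD51C, RAD51D, XRCC2 and XRCC3 encode paralogs that form small complexes acting in recombination, and 1 of 5 passed. XRCC2 was at 27.9, 26.9 and 33.2 CPM in the nc libraries and 22.5, 20.9 and 19.9 CPM in the siZNF514 libraries. All siZNF514 libraries lay below the nc libraries, and it fell (-0.48, SE 0.11, edgeR adjusted p = 0.00794). RAD51C, shared by both paralog complexes, was at 24.1 ± 1.74 CPM in nc and 25.9 ± 1.45 CPM in siZNF514 (0.10, SE 0.09), and XRCC3, its partner in 1 of them, at 43.1 ± 1.64 CPM in nc and 38.8 ± 6.02 CPM in siZNF514 (-0.15, SE 0.11). RAD51D was at 25.7, 34.6 and 34.9 CPM in the nc libraries and 22.8, 28.9 and 26.8 CPM in the siZNF514 libraries and did not pass (-0.28, SE 0.14, edgeR adjusted p = 0.148). Its nc replicate 1 lay among the siZNF514 libraries, and without that library it passed at -0.41. RAD51B was the lowest member per length and showed little difference (8.28 ± 1.51 CPM in nc and 8.13 ± 1.42 CPM in siZNF514; -0.03, SE 0.18). KLC1, on the opposite strand of XRCC3, had 286% of its counts and rose by 0.18, but by 0.06 and not past the threshold with total counts alone.

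Of the partners of strand invasion, 2 of 3 rose. RAD54L, a motor protein that helps to open the sister duplex, was at 41.8, 34.4 and 39.6 CPM in the nc libraries and 54.5, 56.2 and 53.4 CPM in the siZNF514 libraries. It rose (0.50, SE 0.08, edgeR adjusted p = 0.00193). RAD54B, a related motor, was at 27.6, 22.1 and 27.5 CPM in the nc libraries and 32.5, 34.1 and 32.7 CPM in the siZNF514 libraries and rose (0.37, SE 0.10, edgeR adjusted p = 0.0195). The RAD54B call was lost without siZNF514 replicate 2 (0.34) and with total counts alone (0.24), where the RAD54L call held. RP11-267M23.1, which overlaps RAD54B on the same strand with 17.2% of its counts, had a higher estimate but did not pass (0.67). LRRC41, on the opposite strand of RAD54L with 120% of its counts, did not pass (0.04). RAD51AP1, which stimulates strand invasion, was the least even member, at 39.1, 31.6 and 61.5 CPM in the nc libraries and 34.5, 45.2 and 31.4 CPM in the siZNF514 libraries. Its nc replicate 3 was far above the other nc libraries, with a coefficient of variation of 35.3% in nc and 19.5% in siZNF514 against member medians of 6.19% and 5.99%. It did not pass (-0.25, SE 0.25), and its log2 fold change was 0.07 without nc replicate 3.

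Within the Fanconi core complex 2 of 8 genes rose, 2 fell and 4 did not pass. FANCA (ENSG00000187741; chromosome 16, 89737549 to 89816657, minus strand), the subunit most often mutated in Fanconi anaemia and the one with both kinds of letters in its printed stretch, was at 41.3, 41.1 and 37.3 CPM in the nc libraries and 67.6, 60.3 and 60.1 CPM in the siZNF514 libraries. It rose (0.65, SE 0.07, edgeR adjusted p = 0.000385), the highest value of the set, close to that of RMI2. ZNF276, on the opposite strand of FANCA with 40.0% of its counts, did not pass (-0.31). FANCG, which binds FANCA directly, was at 44.7, 53.5 and 50.02 CPM in the nc libraries and 33.5, 43.4 and 41.4 CPM in the siZNF514 libraries. It was just past the threshold in the other direction (-0.33, SE 0.11, edgeR adjusted p = 0.0469), and not past without nc replicate 2 or 3, without siZNF514 replicate 1 or 3, with a length offset or with no filter (-0.22 to -0.36). FANCF (ENSG00000183161; chromosome 11, 22622519 to 22626787, minus strand), an adaptor of the complex, was at 26.9, 27.7 and 26.0 CPM in the nc libraries and 15.9, 18.8 and 16.9 CPM in the siZNF514 libraries. It fell to 64.1% of the nc level (-0.64, SE 0.09, edgeR adjusted p = 0.000936) and was called lower under all 16 alternatives.

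FANCM, the motor protein that anchors the complex to DNA, was low, at 10.8, 12.9 and 11.4 CPM in the nc libraries and 16.6, 15.3 and 15.1 CPM in the siZNF514 libraries. It rose (0.42, SE 0.11, edgeR adjusted p = 0.0142), and with total counts alone it did not pass at 0.29. FANCL, the ubiquitin ligase of the complex, did not pass (33.3 ± 1.91 CPM in nc and 34.4 ± 1.04 CPM in siZNF514; 0.05, SE 0.07). Nor did FANCC (45.3 ± 1.66 CPM in nc and 47.8 ± 2.12 CPM in siZNF514; 0.08, SE 0.06) and FANCE (26.2 ± 0.915 CPM in nc and 26.1 ± 3.63 CPM in siZNF514; -0.01, SE 0.11), which bind each other. FANCB, the partner of FANCL, was at 10.3, 8.56 and 9.78 CPM in the nc libraries and 12.3, 12.6 and 11.1 CPM in the siZNF514 libraries. Its groups did not overlap, but it missed the threshold (0.33, SE 0.12, edgeR adjusted p = 0.0507), and it passed at 0.35 with a gene length offset.

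Transcripts of the proteins that the core complex modifies moved apart. FANCD2 was at 73.0, 76.0 and 73.4 CPM in the nc libraries and 87.6, 87.1 and 84.6 CPM in the siZNF514 libraries. It rose by a small but even amount (0.22, SE 0.05, edgeR adjusted p = 0.00623) and did not pass with total counts alone (0.09). FANCI (ENSG00000140525; chromosome 15, 89243949 to 89317261, plus strand), its partner and the most abundant member per length, was at 184, 173 and 181 CPM in the nc libraries and 152, 146 and 157 CPM in the siZNF514 libraries. It fell (-0.24, SE 0.05, edgeR adjusted p = 0.00421). POLG, on the opposite strand of FANCI with 49.4% of its counts, rose by 0.45. BRIP1, the helicase that binds BRCA1, was at 42.1, 40.1 and 43.2 CPM in the nc libraries and 38.6, 37.1 and 35.2 CPM in the siZNF514 libraries. Its groups did not overlap, yet it missed the threshold (-0.18, SE 0.07, edgeR adjusted p = 0.0559), and it passed at -0.30 with total counts alone and at -0.21 when only genes averaging 50 counts or more were tested.

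MSH6, the mismatch recognition subunit, was uneven in both groups, at 94.4, 59.3 and 66.8 CPM in the nc libraries and 59.3, 76.3 and 51.7 CPM in the siZNF514 libraries. The nc replicate 1 and siZNF514 replicate 2 libraries were highest, and it did not pass (-0.23, SE 0.20). FBXO11, which overlaps it on the opposite strand, had 88.7% of its counts and did not pass (0.15). In all, 14 members were overlapped by a row with at least 10% of their own counts. Rows named as pseudogenes of a member held 1 count in all 6 libraries together, from MRE11P1.

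Since partners moved apart, their counts were set against each other within each library, where no scaling between libraries enters. The 9 pairs were chosen after the values were seen. RMI2 had 0.728, 0.692 and 0.780 counts for each count of RMI1 in nc and 1.61, 1.55 and 1.73 in siZNF514. The order of this pair was thus reversed in every siZNF514 library, with a 2.22-fold higher ratio. FANCA over FANCF went from 1.54, 1.48 and 1.43 to 4.25, 3.21 and 3.55, 2.46-fold higher. FANCA over FANCG went from 0.924, 0.768 and 0.746 to 2.02, 1.39 and 1.45.

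EXO1 over RBBP8 went from 0.506, 0.482 and 0.497 to 0.824, 0.882 and 0.935, 1.78-fold higher. Other partners shifted less. MRE11 over RAD50 went from 0.511, 0.554 and 0.498 to 0.740, 0.754 and 0.727, and FANCD2 over FANCI from 0.398, 0.438 and 0.405 to 0.577, 0.596 and 0.540. BARD1 over BRCA1 went from 0.456, 0.429 and 0.488 to 0.623, 0.789 and 0.699. RAD54L over RAD54B, which rose together, shifted by 1.099-fold, and BRCA2 over PALB2, which fell together, had overlapping ratios (1.08, 1.33 and 1.20 against 1.01, 1.13 and 0.995). In 8 of the 9 pairs the groups did not overlap, a share that was not measured for pairs of genes at large. Exact two-sided permutation tests on the log ratios gave p = 0.1 for those 8, the smallest possible, and p = 0.2 for BRCA2 over PALB2 (0.1125 and 0.2 with Benjamini-Hochberg adjustment over 9 pairs). As the pairs were picked by the same values, these tests are a description and the adjustment does not correct for the choice.

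**Figure D3:**
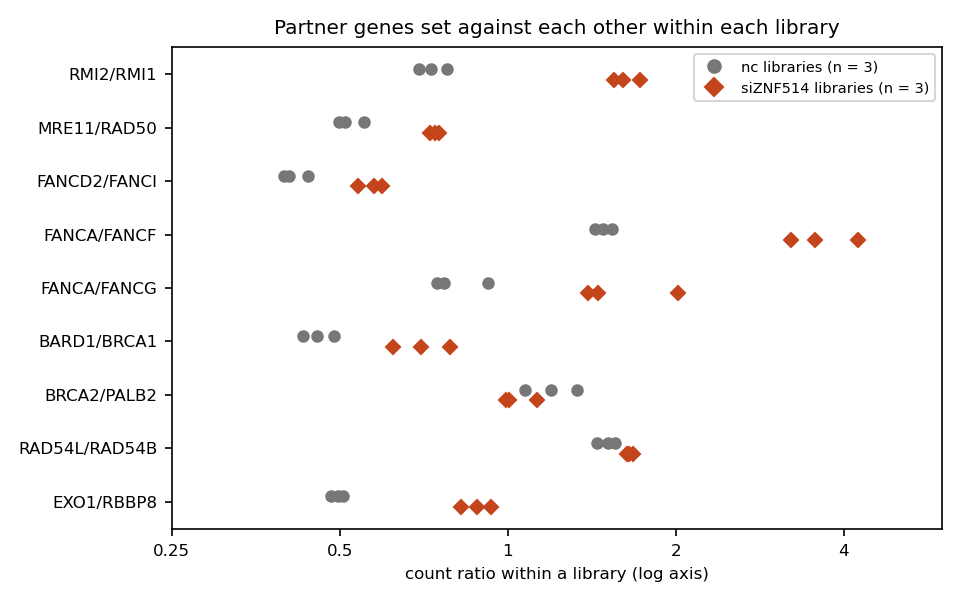
Ratio of the counts of 2 partner genes within each library, on a log axis; grey circles are nc and orange diamonds siZNF514 (n = 3 each). The RMI2 to RMI1 ratio lies below 1 in every nc library and above 1 in every siZNF514 library, while BRCA2 to PALB2 overlaps between groups.

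Other genes of the same pathways also moved both ways. Of 72 listed, 71 were in the table and 68 were tested: 12 were called higher, 25 lower and 31 neither, and the median was -0.09. The called share was 54.4%, against 50.6% of all tested genes (25.5% higher and 25.1% lower). More of the listed genes were thus called lower than higher, while all tested genes were split about evenly. RPA1, the large subunit of the protein that coats single strands, rose (0.30), as did UBE2T, the ubiquitin-conjugating enzyme of FANCD2 (0.43), and HUS1 (0.76), part of the checkpoint clamp. The decreases with the smallest p-values were those of SAMHD1 (113 ± 4.51 to 56.5 ± 1.99 CPM; -1.0, SE 0.05), which aids resection, and of CLSPN (-0.75), the adaptor through which ATR activates CHEK1. USP1 (-0.60), which removes ubiquitin from FANCD2, and the helicase gene MCM9 (-1.09) fell as well. EME2, which forms a structure-specific nuclease with MUS81, was named after its values were seen. It had 232, 240 and 258 counts in nc and 12, 51 and 44 in siZNF514, a larger fall than any member showed (-2.76, SE 0.37, edgeR adjusted p = 0.000863). With total counts alone, 7 of the listed genes rose in place of 12.

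The members were set beside neighbouring pathways, without a test of the lists against each other. Of 18 end joining genes, 5 rose, 6 fell and 7 did not pass (median -0.13). The called share was 61.1%, against 50.6% of all tested genes. XRCC5 (0.22), XRCC4 (0.44), SHLD2 (0.46) and XRCC6 (0.11, but -0.014 with total counts alone) rose, while the ligase gene LIG4 (-1.09), SHLD3 (-0.93) and the nuclease gene DCLRE1C (-1.02) fell. Of 7 mismatch repair genes, MSH3 rose (0.33) and 5 did not pass, a called share of 28.6%.

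Genes of the cell cycle phases were measured beside them. Of all tested genes, 50.6% were called, 25.5% higher and 25.1% lower. Of 31 genes of replication licensing and forks, 4 rose, 9 fell and 18 did not pass (median -0.02), a called share of 41.9%. POLE (0.31), MCM7 (0.42), DTL (0.27) and RFC3 (0.14) rose. DTL was not past the threshold without nc replicate 2, nc replicate 3 or siZNF514 replicate 3 (0.23 to 0.24) or with total counts alone (0.14). RFC3 was not past it without any 1 library other than siZNF514 replicate 3 (0.12 to 0.14), with the replicate number as a block (0.14) or with total counts alone (0.014). Nor did RFC3 pass when only genes averaging 50 counts or more were tested (0.11). In limma-trend fits on FPKM with pseudocounts of 0.1 and 1, neither RFC3 (0.0147 and 0.0144) nor DTL (0.14 and 0.12) passed. Only 2 of the 31 were called higher without nc replicate 2, without nc replicate 3 or with total counts alone, and the last of these gave 14 lower. CDC6 (-1.07), PCNA (-0.93), MCM10 (-0.48) and CDC45 (-0.27) fell. All 27 mitotic genes rose, also with total counts alone (median 0.75), with the smallest p-values for AURKA (1.20), CENPF (0.94), CCNA2 (1.1) and CCNB2 (1.18). Their part in the changes of the repair genes was not tested.

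**Figure D4:**
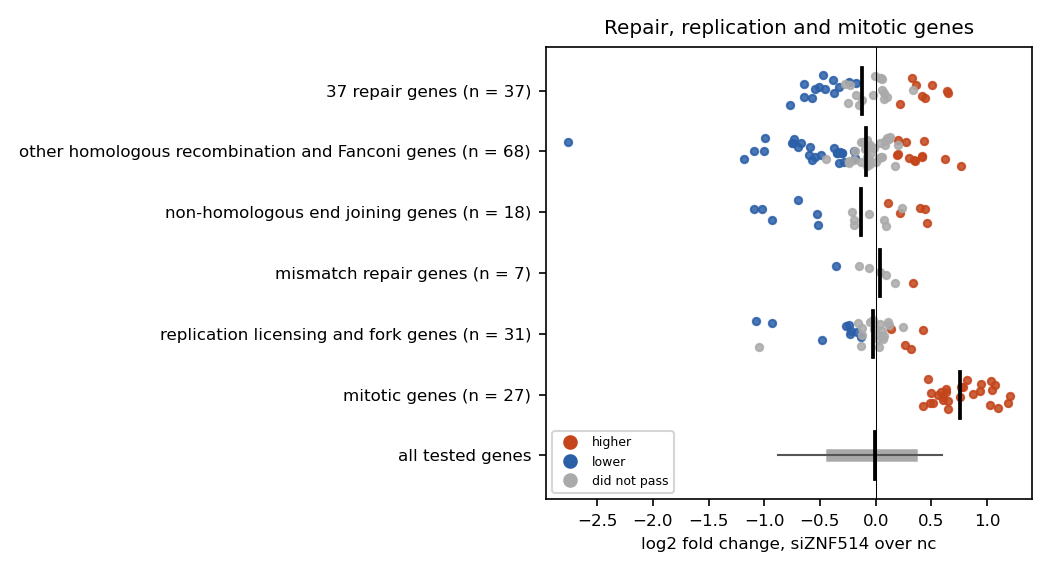
Log2 fold change (siZNF514 over nc) of each tested gene in the set and in 5 lists; orange points were higher, blue lower and grey did not pass the edgeR adjusted p of 0.05, black bars are medians, and for all tested genes the thick and thin lines span the 25th to 75th and the 10th to 90th percentiles. The lowest point is EME2 (-2.76). The repair genes straddle 0 (median -0.12), while all 27 mitotic genes lie to the right of it (median 0.75).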

How the data were processed

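The submitters' processing notes name the hg38 build, the programs HISAT2 (2.0.4) and StringTie (1.3.3b) and the package edgeR, without saying what each was used for. Annotation release, strand setting and any filters are not stated in the sources used here. The deposited count columns hold whole numbers per gene with differing totals, with no normalization visible. The deposited FPKM columns hold the authors' values scaled by gene length and library total. Columns were matched to libraries by title, and none was left over.

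The 37 members and all gene lists were chosen with earlier results of these data known, so they are not independent of them. Of 182 list and marker symbols, 180 matched by name, 1 by gene identifier and 1 did not match. Genes were filtered with filterByExpr (minimum count 10, minimum total 15), which left 14250 genes. Counts were scaled by TMM (factors 0.954 to 1.05) and tested with the quasi-likelihood F test of edgeR 4.0.16 in R 4.3.3 with 4 residual degrees of freedom, siZNF514 against nc, adjusted by Benjamini-Hochberg over all tested genes at 0.05. The SE is the log2 fold change divided by the square root of F. On simulated counts, all 14250 genes had the same square root of dispersion, 0.123. Changes of 0.5, 1 and 2 on the log2 scale were planted in 67, 67 and 66 genes. The fit recovered 28.4% of changes of 0.5, 79.1% of 1 and all 66 of 2. In the data 50.6% of genes were called, which makes the adjustment less strict. These shares therefore do not give the sensitivity of the comparison itself. At these depths 1 count is at most 0.0789 CPM. All members, ZNF514 and from each list up to 4 genes per direction, taken by p-value, are named, apart from a few genes that are not reported here. Overlapping genes are those whose row overlaps a member's row and whose total count is at least 10% of the member's total. Reads within the overlap itself were not counted. There were 15 such rows, of which not all are named, and those named were chosen after their values were seen.

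Alternatives were a replicate block, a gene length offset (lowess, span 0.5) and both together, each library left out, DESeq2 1.42.0 size factors and its Wald test, total counts alone, no filter, a mean count of at least 50, and limma 3.58.1 trend on log2(FPKM + 0.1) or log2(FPKM + 1). Same-numbered libraries did not deviate together, so the numbers were not taken as pairs.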

Additional observations from a re-analysis of the deposited data

How the results depend on the processing

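Of the 21 called members, 16 kept their direction and call under all 16 alternatives. The other 5 were RAD50, FANCG, RAD54B, FANCM and FANCD2. With total counts alone and in limma-trend on FPKM with a pseudocount of 0.1 or 1, 5 members rose in place of 8. Leaving out 1 library at a time gave 19 to 21 members past the threshold, 7 or 8 of them higher and 11 to 13 lower. With the replicate number as a block, 22 members and 6640 genes passed, and RAD51D was called in addition (-0.27). The deviations of same-numbered libraries correlated by -0.036 to 0.041. With the block and a gene length offset together, 20 members passed.

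Reversals among members concerned those that were not called in either fit. With total counts alone and in limma-trend on FPKM with pseudocounts of 0.1 and 1, the log2 fold changes were in turn -0.0926, -0.0911 and -0.0764 for ATR, -0.0690, -0.0669 and -0.0593 for CHEK2, -0.0723, -0.0739 and -0.0620 for BLM, and -0.0537, -0.0519 and -0.0381 for BARD1. In the same order they were -0.0265, -0.024 and -0.0174 for RAD51C, -0.0478, -0.0461 and -0.0376 for FANCC, and -0.0794, -0.0764 and -0.0688 for FANCL. ATR was -0.000651 with a mean count of at least 50. RAD51B was 0.000379 with a length offset and 0.00114 with the block added, and FANCE was 0.00734 with the offset and 0.0139 with no filter. Leaving out 1 library at a time, values ran from -0.00259 to 0.0709 for ATR, from -0.00139 to 0.144 for BLM, from -0.00153 to 0.129 for BARD1, from -0.176 to 0.133 for RAD51B, from -0.443 to 0.0659 for RAD51AP1 and from -0.115 to 0.0848 for FANCE. ZNF276, which overlaps FANCA, ran from -0.503 to 0.0175 in the same way. AC060780.1, which overlaps BRCA1, was -0.0963 with total counts alone, -0.0971 and -0.0514 on FPKM and -0.00499 with a mean count of at least 50, and ran from -0.115 to 0.114 without 1 library. XRCC6, called higher, was -0.0142 with total counts alone and -0.0132 and -0.0131 on FPKM, none past the threshold. The cause was not tested. Depth limits the rarest members, such as RAD52, with 91 counts in its lowest library, and RAD51B, with 96.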
